A study of Mus musculus with 9 samples.

Results

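The immediate early response genes are a group of 35 genes, many of which cells switch on within minutes of a stimulus, before any new protein is made. They were chosen by gene name and each matched 1 row of the 49510 genes in the count table of a mouse regulatory T cell (Treg) study. All 35 passed the filter on low counts, which left 16609 genes for testing. The libraries came from Foxp3-GFP mice, a reporter strain in which cells that express Foxp3, the transcription factor of the Treg lineage, are green. The mice were 8 weeks old and had had ischemia/reperfusion (I/R) injury of the heart 3 days before. Each of 3 organs gave 3 libraries of Tregs, double-sorted on magnetic beads and by flow cytometry: the injured heart, the mediastinal lymph node (MLN, the node draining it) and the spleen. Every group carried the reporter and the injury, so no comparison here is with an uninjured animal. Whether each library was 1 animal or a pool is not in the labels, so the p-values reflect only how far these libraries spread, which may in part be technical.

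Immediate early genes are read by factors that already sit in the resting cell. Kinases of the MAP kinase cascade activate the serum response factor (SRF) with its partners, and cyclic AMP or calcium signals activate CREB. The first products are transcription factors of the FOS, JUN, EGR, KLF and NR4A families, and soon after come proteins that end the response, such as MAP kinase phosphatases and proteins that destroy short-lived messenger RNAs. In T cells the group responds to the antigen receptor, and in many cell types it also responds to the enzymes, warmth and handling used to free cells from solid tissue. The comparisons ask whether these genes stand at another level in Tregs of the injured muscle than in Tregs of lymphoid organs, and whether the lymphoid organs differ from each other.

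Totals ranged from 156194012 to 267520538 counts per library. In 2 organs the genes were led by 1 library, spleen 3 and heart 2, and with MLN 3 these were also the libraries with the highest scaling factors of their organs (1.11 to 1.24) and with the lowest share of B2m, which encodes a subunit of MHC class I (1.2% to 1.55%, against 2.38% to 2.71% in the other 6 libraries). Results are therefore given with and without these 3 libraries. Spleen 3 and heart 2 were picked partly by the levels of these genes. Counts of these genes without them are therefore not like for like with the shares over all genes. The label of the heart libraries was checked against Foxp3, which stood at 8.77, 38 and 0.24 CPM (a gene's counts relative to the scaled total of its library) in heart 1, 2 and 3, from 41.8 to 46.3 CPM in the MLN and from 31.2 to 187 CPM in the spleen. Foxp3 thus goes against the label of heart 3 and was low in heart 1. It was also highest of its organ in spleen 3, MLN 3 and heart 2. Foxp3 is 1 of 14 Treg identity genes, and the others varied in heart 3. Ikzf2 was at 350 CPM there (936 to 2093 CPM in the lymphoid libraries) and Ctla4 at 315 CPM (545 to 926 CPM). Ikzf4 had no count in heart 3, and Gpr83 was at 1.66 CPM. Tnfrsf4 (305 CPM, lymphoid libraries 229.7 to 698.7 CPM), Tnfrsf18 (141.8 CPM, 137.3 to 334.6 CPM) and Itgae (19.1 CPM, 2.77 to 96.2 CPM) stood inside the lymphoid range in heart 3. The rest of the 14 lay below that range there. Heart 1, 2 and 3 are therefore called the libraries labelled heart Tregs, or heart libraries, and the heart means those libraries below. Markers of other cells were also present in the heart libraries, and their values stand beside the gene groups further down. In bulk libraries, fewer cells of a type and less RNA per cell cannot be told apart.

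Egr1, a zinc finger transcription factor that mitogens and T cell receptor signals induce, was higher in the libraries labelled heart Tregs than in those of the MLN, and Atf3, Ier3, Fosl1, Fosl2, Egr2, Klf4, Klf10, Nr4a3 and Gadd45b also lay above every spleen and MLN library in all 3 heart libraries. Those are 10 of 35 genes with all heart libraries above all 6 lymphoid libraries, where the share over all genes tested was 9.48%. Myc, a transcription factor that drives growth of activated lymphocytes, lay below all 6 (1 of 35, against 3.91% of all genes). In another pattern, genes such as Jun, Junb, Jund, Nr4a1, Fos and Csrnp1 were high in spleen 3 and heart 2 and lower in the other libraries of the same organs. The patterns share genes: Atf3, Egr1, Egr2 and Ier3 also had spleen 3 and heart 2 as the highest libraries of their organs.

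**Figure D1:**
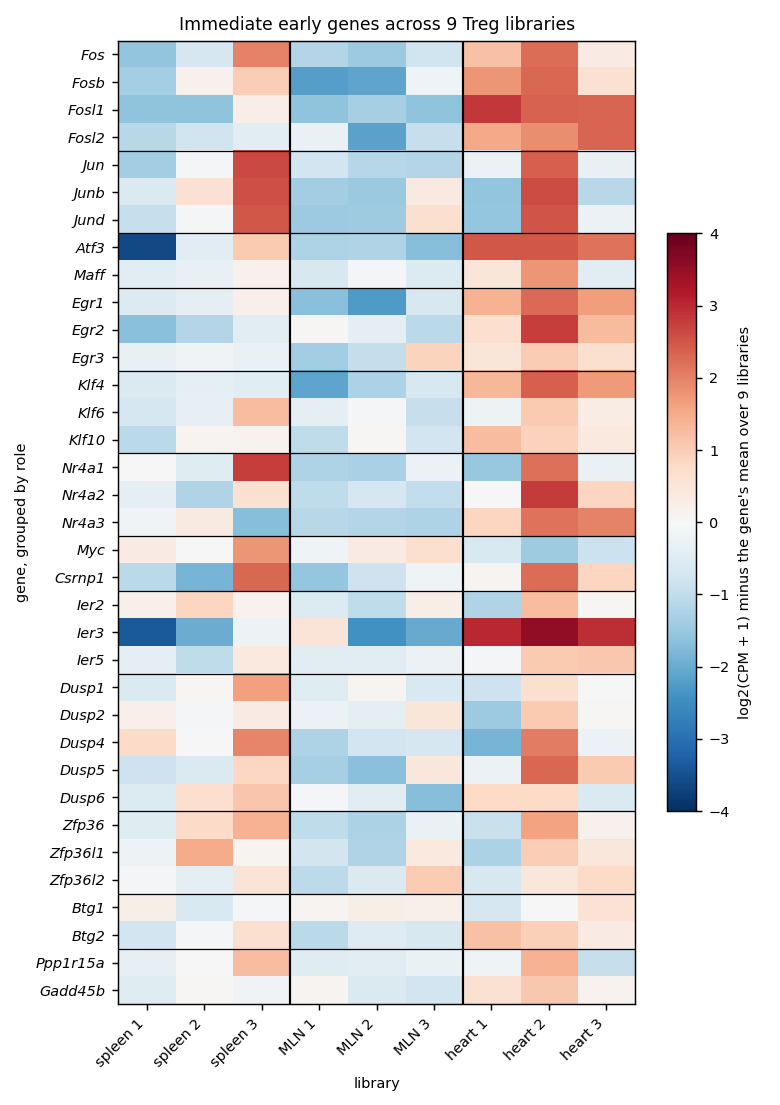
Levels of the 35 genes (rows, grouped by role) in the 9 libraries (columns), as log2(CPM + 1) minus each gene's mean over the libraries. Rows such as Ier3, Atf3 and Fosl1 are red in all 3 heart columns, while Jun, Junb and Jund are reddest in spleen 3 and heart 2.

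In the heart against the MLN, 1 of 35 genes, Egr1, was higher and 0 were lower by edgeR's quasi-likelihood test (adjusted p below 0.05, Benjamini-Hochberg over all genes). Of all 16609 genes 1.38% passed, 1.1% higher and 0.283% lower. Leaving out any 1 of the 9 libraries ended the Egr1 call. DESeq2, which in each comparison gave Fosl1 and Ier3 no adjusted p, called 11 of the other 33 genes (14% of all genes) and limma-voom 7 (8.02% of all genes). An unadjusted p below 0.05 was reached by 12 of 35 genes that were higher in the heart (10.3% of all genes) and by 0 that were lower (5.23% of all genes). Levels did not overlap for 18 genes, 17 higher (14.9% of all genes) and 1 lower (11.2% of all genes). The fold change was above 0 for 33 of 35 genes (53.5% of all genes), with a median log2 change of 1.78, where the median of all genes was 0.12. Without spleen 3, MLN 3 and heart 2 the median was 1.07, and 20 genes lay higher and 1 lower without overlap, against 27.2% and 25.2% of all genes at 2 libraries per organ.

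In the heart against the spleen, 0 of 35 genes passed the same edgeR test (0.789% of all genes did), 8 reached an unadjusted p below 0.05, DESeq2 called 5 of 33 (11.9% of all genes) and limma-voom 6 (6.87% of all genes). Of the 8, 7 were higher in the heart (9.01% of all genes) and 1, Myc, was lower (4.62% of all genes). Levels did not overlap for 11 genes that were higher (12.4% of all genes) and 1 that was lower (6.9% of all genes). The median log2 change was 0.73 against 0.02 for all genes, and 23 of 35 changes were above 0 (50.9% of all genes). The median was 0.20 without heart 2 and 1.41 without spleen 3. Without spleen 3, MLN 3 and heart 2 together it was 0.90, with 19 genes higher and 4 lower without overlap (25.7% and 19.5% of all genes). Both comparisons use the same heart libraries, so their values are not independent of each other.

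In the MLN against the spleen, 0 of 35 genes passed the edgeR test (0% of all genes did), 0 reached an unadjusted p below 0.05 (5.75% of all genes, 2.4% higher and 3.35% lower), and DESeq2 and limma-voom each called 0 (4.94% and 0.0181% of all genes). The median log2 change was -0.87 against 0 for all genes. Of 35 genes, 30 had a change below 0 and 5 a change above 0, where 47.5% of all genes had one above 0. That median moved with the libraries used: it was -0.090 without spleen 3 and -0.40 without all 3 libraries named above. In the latter fit 11 of 35 changes were above 0. Without those 3, 16 genes lay lower and 1 higher in the MLN without overlap (15.2% and 18.8% of all genes). With all libraries the following held. Levels did not overlap for Egr1, Dusp4 and Klf4, all lower in the MLN (3 of 35, against 4.56% of all genes), and 0 were higher (4.52%), where 9.08% of all genes did not overlap in either direction.

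**Figure D2:**
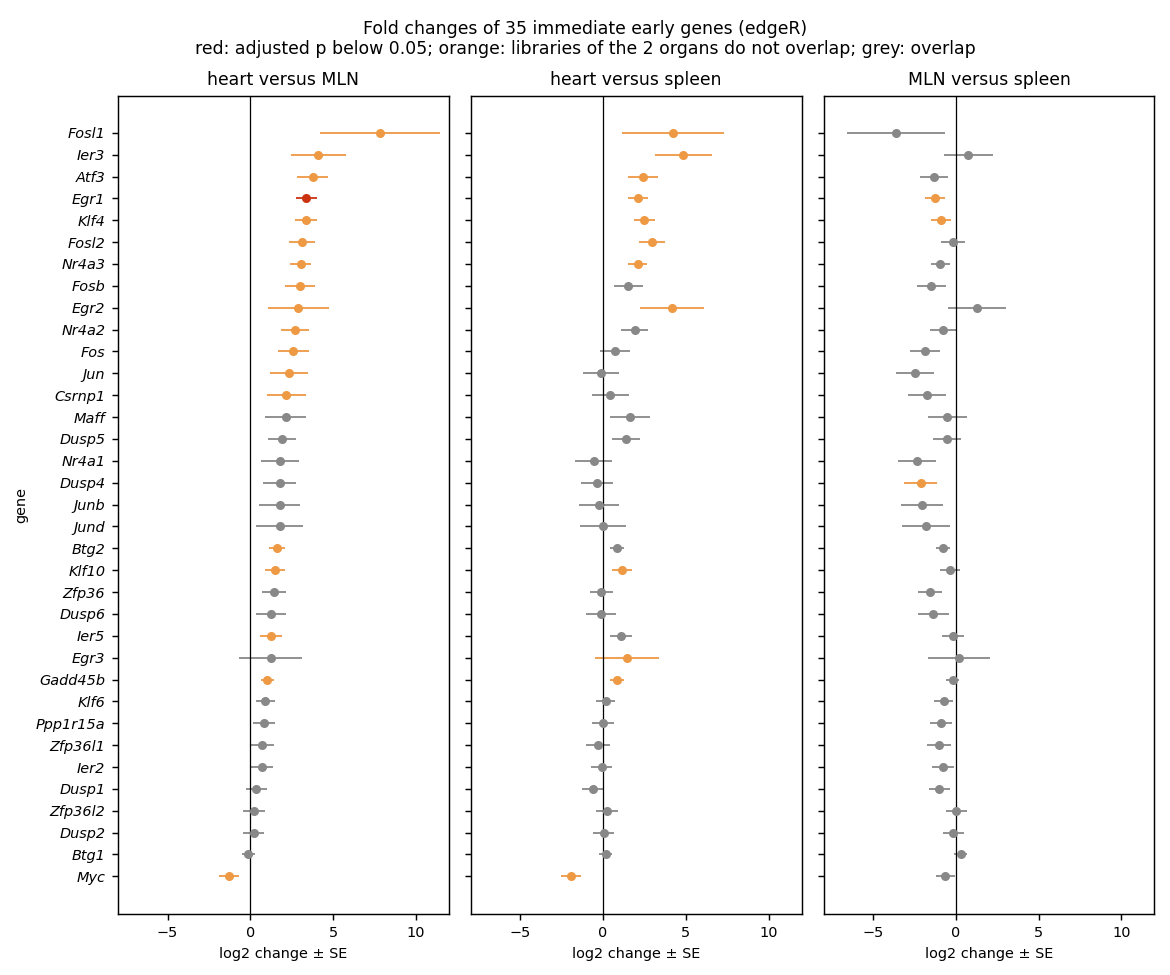
Log2 change of each gene with its standard error (SE) in the 3 comparisons, from edgeR, ordered by the change between heart and MLN. Egr1 in the heart against the MLN is the 1 point in red, and 33 of 35 points of that panel lie right of 0.

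The FOS family makes 1 partner of the AP-1 dimer, which binds DNA with a JUN partner. Fos itself was at 41.3, 78 and 507 CPM in spleen 1, 2 and 3, at 55.2, 45 and 71.7 CPM in MLN 1, 2 and 3 and at 287, 593 and 157 CPM in heart 1, 2 and 3. Spleen 3 stood inside the range of the heart, so the heart overlapped with the spleen but not with the MLN (log2 2.59, SE 0.94, edgeR adjusted p = 0.226, heart against MLN). Fosb stood at 72.3, 104 and 31.9 CPM in heart 1, 2 and 3 and at 3.7, 4.02 and 18 CPM in the MLN, without overlap (log2 3.02, SE 0.92, edgeR adjusted p = 0.143). In the spleen Fosb was at 7.3, 23 and 41.8 CPM, which reached into the range of heart 3.

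Fosl2, which encodes the FOS relative Fra-2, had low levels in the lymphoid libraries and higher ones in every heart library. It was at 24.9, 31.8 and 44.3 CPM in heart 1, 2 and 3, at 3.24, 4.17 and 5.57 CPM in the spleen and at 6.55, 1.05 and 3.78 CPM in the MLN. The log2 change was 2.96 (SE 0.78, edgeR adjusted p = 0.114) against the spleen and 3.15 (SE 0.78, edgeR adjusted p = 0.0931) against the MLN. Fosl1, which encodes Fra-1, was nearly silent outside the heart. It had 20.8, 14.7 and 14.3 CPM in the heart, while spleen 1, spleen 2, MLN 1 and MLN 3 had no count, which at 3 counts per library allows up to 0.0193, 0.0142, 0.0144 and 0.0116 CPM. Spleen 3 and MLN 2 had 2.65 and 0.216 CPM. Its adjusted p was 0.709 against the spleen and 0.347 against the MLN (edgeR). Fosl1 shares 1163 exon bases with Ccdc85b on the opposite strand, and the strand setting of the counting is not given in the sources used here. Ccdc85b was at 0.522, 2.86 and 0.484 CPM in the heart and between 0.643 and 3.15 CPM in the other libraries.

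The JUN family, the other partner of AP-1, was led by single libraries in the spleen and the heart. Junb was at 86.8, 202 and 788 CPM in the spleen, 49.3, 46.1 and 169 CPM in the MLN and 43, 802 and 60.8 CPM in the heart. Spleen 3 and heart 2 were high and near each other, and heart 1 and 3 lay below spleen 1 and 2. Jun was at 8.45, 23 and 155 CPM in the spleen, 13.5, 10.3 and 9.99 CPM in the MLN and 20.2, 129.8 and 19.3 CPM in the heart. Jund, which resting cells usually express steadily, was at 3.52, 7 and 46.7 CPM in the spleen, 2.12, 2.18 and 12.2 CPM in the MLN and 1.9, 48 and 6.21 CPM in the heart. The heart lay above the MLN without overlap for Jun, whereas Junb and Jund overlapped. The heart mean of each was within 1 SD of the spleen mean: 56.4 ± 63.5 and 62.2 ± 80.8 CPM for Jun, 302 ± 433 and 359 ± 376 CPM for Junb, and 18.7 ± 25.5 and 19.1 ± 24 CPM for Jund (SD, n = 3). Jund shares 877 exon bases with the antisense gene Gm11175, which had at most 0.0472 CPM, and Junb shares 173 with Prdx2, which ran from 65.7 to 241 CPM, so these levels are uncertain to that extent.

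Atf3 encodes a stress-induced factor that pairs with JUN and often represses its targets, and per kb of exon it had the highest heart level of the 35. Its levels were 1312, 1313 and 1051 CPM in heart 1, 2 and 3, 18.1, 175 and 486 CPM in the spleen and 99.7, 101 and 71.2 CPM in the MLN. The heart libraries were close to each other and above all others, while the spleen libraries ran from low to high. The log2 change was 3.76 (SE 0.96, edgeR adjusted p = 0.0961) against the MLN and 2.44 (SE 0.90, edgeR adjusted p = 0.273) against the spleen. With 1 library left out, 1 of 9 fits called Atf3 in the heart against the MLN, the one without spleen 1. Maff, a small MAF protein without an activation domain, stayed at or under 6.82 CPM in every library, and its organs overlapped.

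**Figure D3:**
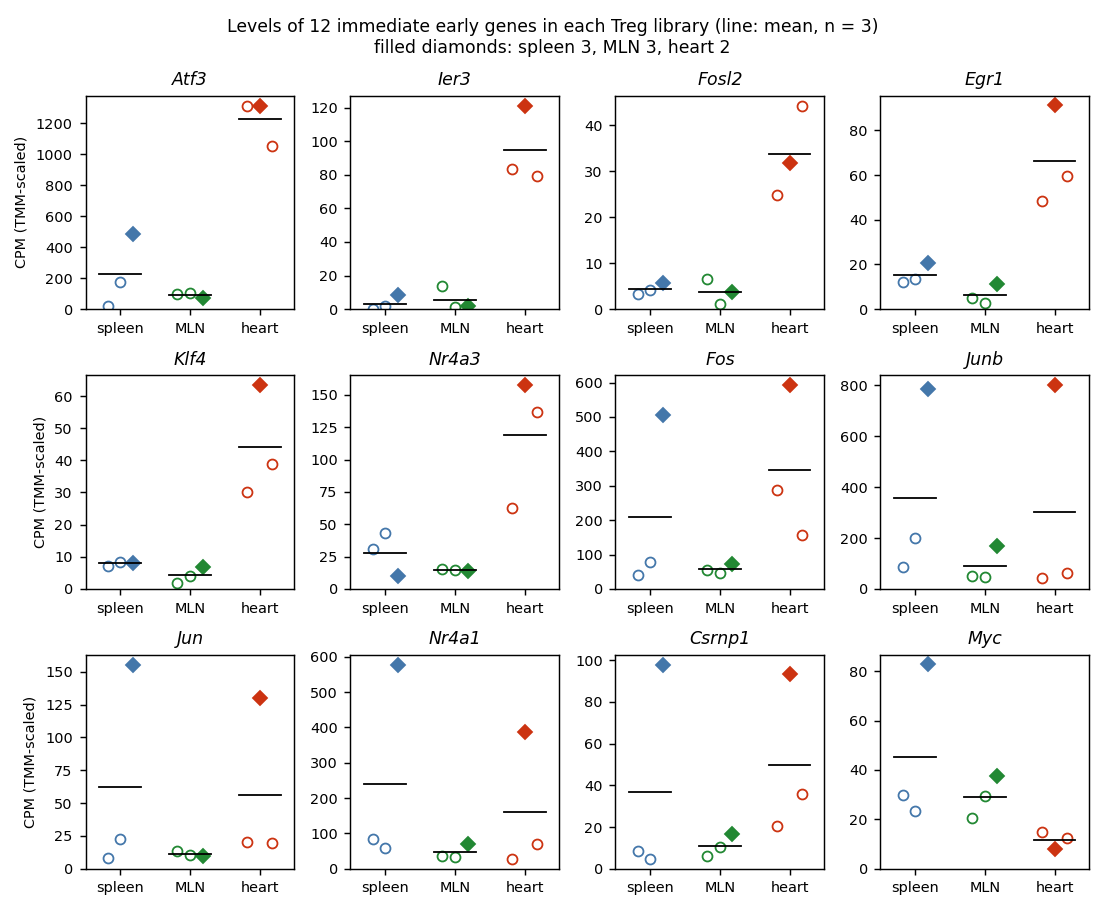
Levels of 12 of the genes in CPM by organ. Each point is a library, filled diamonds are spleen 3, MLN 3 and heart 2, and lines are means of 3 libraries. In the upper row all heart points lie above the others, as they do for Klf4 and Nr4a3, while for Junb, Jun, Nr4a1 and Csrnp1 the spleen 3 and heart 2 diamonds lie high together.

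The promoters of genes that showed each pattern are printed here so that the patterns can be compared, although Atf3 showed both. Each is the 250 bases before 1 RefSeq start of the gene (build GRCm38.p6), 5′ to 3′ in the direction of the gene, and capitals mark TGACG, the core of the CREB site, on either strand. The starts used for Atf3, Nr4a1 and Nr4a3 lie inside the annotated bounds of these genes, so their outermost starts are not shown. Fos (chr12:85473640-85473889, plus strand), Junb (chr8:84978749-84978998, minus strand) and Nr4a1 (chr15:101266596-101266845, plus strand) were high in spleen 3 and heart 2, and Atf3 (chr1:191183334-191183583, minus strand) and Nr4a3 (chr4:48045055-48045304, plus strand) lay higher in all heart libraries.
Fos: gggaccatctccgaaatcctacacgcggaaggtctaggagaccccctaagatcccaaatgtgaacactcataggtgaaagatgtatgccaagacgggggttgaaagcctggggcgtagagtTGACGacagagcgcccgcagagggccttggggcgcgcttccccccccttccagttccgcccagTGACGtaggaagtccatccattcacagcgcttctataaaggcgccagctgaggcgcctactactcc
Junb: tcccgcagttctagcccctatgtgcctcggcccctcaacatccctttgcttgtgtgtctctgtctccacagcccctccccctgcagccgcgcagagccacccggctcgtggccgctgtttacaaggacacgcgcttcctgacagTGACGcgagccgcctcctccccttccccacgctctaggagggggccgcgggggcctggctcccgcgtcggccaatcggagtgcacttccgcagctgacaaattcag
Nr4a1: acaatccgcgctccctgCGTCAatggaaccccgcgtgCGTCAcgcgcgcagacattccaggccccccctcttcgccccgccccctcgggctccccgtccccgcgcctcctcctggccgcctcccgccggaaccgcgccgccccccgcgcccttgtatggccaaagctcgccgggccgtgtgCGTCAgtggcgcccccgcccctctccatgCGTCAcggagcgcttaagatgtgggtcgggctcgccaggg
Atf3: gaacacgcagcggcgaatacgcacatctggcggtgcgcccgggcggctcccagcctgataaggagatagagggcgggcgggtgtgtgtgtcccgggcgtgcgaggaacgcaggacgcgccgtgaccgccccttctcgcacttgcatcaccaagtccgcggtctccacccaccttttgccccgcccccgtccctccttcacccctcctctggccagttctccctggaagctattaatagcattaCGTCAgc
Nr4a3: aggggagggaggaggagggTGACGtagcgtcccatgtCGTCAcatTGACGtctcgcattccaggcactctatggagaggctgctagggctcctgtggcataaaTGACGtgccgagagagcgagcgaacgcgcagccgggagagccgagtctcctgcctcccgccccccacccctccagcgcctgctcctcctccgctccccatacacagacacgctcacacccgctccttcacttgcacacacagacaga

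Capitals stood in all 5 promoters, 2 times in Fos, 1 time in Junb, 4 times in Nr4a1, 1 time in Atf3 and 4 times in Nr4a3. Of the 35 genes, 27 had a RefSeq promoter window of 300 bases, 250 before the start and 50 after. TGACG on either strand was in a window of 17 of these 27 genes and in 23% of 27025 genes. The full CREB site TGACGTCA, which contains that core on both strands, was in 4 of 27 (Btg2, Dusp1, Maff and Ppp1r15a) and in 2.03% of all genes. The CArG box, which SRF binds, was in 3 of 27 (Dusp5, Egr2 and Zfp36) and in 1.81% of all genes. The AP-1 site TGANTCA on either strand was in 2 of 27 (Csrnp1 and Zfp36l1) and in 8.97% of all genes. Such matches are letters in a window and say nothing of binding.

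The EGR family encodes zinc finger factors of which Egr2 and Egr3 restrain T cell activation. Egr1 (ENSMUSG00000038418, chromosome 18, 34859823 to 34864984, build GRCm38) was at 48.5, 91.2 and 59.5 CPM in heart 1, 2 and 3, 11.9, 13.5 and 20.7 CPM in the spleen and 4.99, 2.94 and 11.3 CPM in the MLN. All heart libraries lay above all spleen libraries, and these above all MLN libraries. It rose 10.3-fold from 6.42 ± 4.38 CPM in the MLN to 66.4 ± 22.1 CPM in the heart (SD, n = 3; log2 3.37, SE 0.64, edgeR adjusted p = 0.0479). Of 18 other settings 5 also called Egr1, with log2 values of 3.02 to 4.07 over the 18, and leaving out any single library of the 9 ended the call. Against the spleen the log2 change was 2.11 (SE 0.61, edgeR adjusted p = 0.14).

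Egr2 and Egr3 were scarce. Egr2 was at 4.1, 20.7 and 6.64 CPM in heart 1, 2 and 3, 0, 0.411 and 1.34 CPM in the spleen and 2.29, 1.42 and 0.522 CPM in the MLN, so the heart lay above both, with adjusted p-values of 0.4 and 0.547 (edgeR). Egr3 did not exceed 4.26 CPM in any library, and MLN 3 reached into the range of the heart.

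Among the KLF factors, Klf4, which holds T cells and many other cells in quiescence, had all heart libraries above the lymphoid ones. It was at 30, 63.3 and 38.7 CPM in heart 1, 2 and 3, 7.28, 8.44 and 8.01 CPM in the spleen and 1.86, 4.16 and 6.92 CPM in the MLN. The lowest heart value was above 3 times the highest lymphoid value. The log2 change was 3.35 (SE 0.66, edgeR adjusted p = 0.0512) against the MLN, just short of the threshold, and 2.48 (SE 0.63, edgeR adjusted p = 0.11) against the spleen. Klf10, a factor induced by transforming growth factor beta, was at 32.5, 26 and 17.9 CPM in the heart and at 6.04, 13.7 and 7.46 CPM in the MLN (log2 1.49, SE 0.63, edgeR adjusted p = 0.303). The spleen had 5.76, 14.4 and 14.6 CPM of Klf10, all below the heart (edgeR adjusted p = 0.514). Klf6, the most abundant of the 3 per kb, was at 164, 207 and 611 CPM in the spleen, 199.6, 248 and 138 CPM in the MLN and 227, 541 and 319 CPM in the heart, and spleen 3 was its highest library.

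The 3 NR4A orphan receptors, which antigen receptor signals induce and which help to maintain Foxp3 expression, did not share 1 pattern. Nr4a3 was at 62.6, 158 and 136 CPM in heart 1, 2 and 3, 30.9, 43.6 and 9.82 CPM in the spleen and 15.1, 14.4 and 14 CPM in the MLN. The heart lay above both organs, and spleen 3, which led for many other genes, was the lowest library of all for Nr4a3. Its log2 change was 3.04 (SE 0.62, edgeR adjusted p = 0.0556) against the MLN and 2.08 (SE 0.60, edgeR adjusted p = 0.139) against the spleen. Nr4a1, also called Nur77, was highest in spleen 3 and heart 2, at 84.4, 59.3 and 577 CPM in the spleen, 34.8, 33.6 and 71.3 CPM in the MLN and 28.5, 386 and 69.4 CPM in the heart. Heart 1 was the lowest of the 9 libraries for Nr4a1. Nr4a2 was at 20, 146 and 37.7 CPM in the heart and at 9.51, 12.3 and 9.59 CPM in the MLN, without overlap (log2 2.70, SE 0.83, edgeR adjusted p = 0.146). The log2 change was 1.46 without heart 2 and 1.43 without spleen 3, MLN 3 and heart 2. Its spleen values of 15.4, 8.19 and 31 CPM overlapped with the heart.

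Myc was the 1 gene with all heart libraries lowest. It was at 14.9, 8.17 and 12.3 CPM in heart 1, 2 and 3, 29.8, 23.2 and 82.7 CPM in the spleen and 20.6, 29.6 and 37.5 CPM in the MLN. Every heart library lay below every lymphoid library, and heart 2, which led for most of the other genes, was the lowest of all. The log2 change was -1.94 (SE 0.60, edgeR adjusted p = 0.172) against the spleen, -1.17 without spleen 3, and -0.95 without spleen 3, MLN 3 and heart 2. Against the MLN the adjusted p was 0.339 (edgeR). Csrnp1, a nuclear protein first found as induced by AXIN1, was at 8.57, 4.52 and 97.7 CPM in the spleen, 5.93, 10.3 and 16.8 CPM in the MLN and 20.5, 93.3 and 35.9 CPM in the heart. The heart did not overlap with the MLN for Csrnp1 (edgeR adjusted p = 0.431), and spleen 3 was its highest library.

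Of the immediate early response proteins, Ier3, which shields cells from death and modulates ERK and NF-kB signals, had one of the widest gaps. It was at 83.7, 121 and 79.4 CPM in heart 1, 2 and 3, 0.0321, 1.62 and 8.14 CPM in the spleen and 13.9, 0.964 and 1.57 CPM in the MLN. The heart libraries were near each other, and the lymphoid libraries spread from almost nothing to 13.9 CPM. The log2 change was 4.86 (SE 1.74, edgeR adjusted p = 0.249) against the spleen and 4.11 (SE 1.68, edgeR adjusted p = 0.286) against the MLN. It was 6.83 against the spleen without spleen 3, and 6.22 against the MLN without MLN 1. Ier5 was at 10.2, 23.5 and 23.7 CPM in heart 1, 2 and 3 and at 7.62, 7.75 and 8.97 CPM in the MLN, without overlap (edgeR adjusted p = 0.427), and at 8.2, 4.85 and 14.3 CPM in the spleen. Ier2 was at 51.2, 80 and 48.8 CPM in the spleen, 29.5, 21 and 53.3 CPM in the MLN and 18.6, 106 and 45.5 CPM in the heart, with full overlap.

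The dual specificity phosphatases remove phosphate from MAP kinases and so close the signal that induces them. None of the 5 separated the heart from either lymphoid organ. Dusp1, the most abundant of the 5 per kb in spleen and MLN, was at 99.6, 156 and 470.5 CPM in the spleen, 106, 161 and 97.7 CPM in the MLN and 84.2, 235 and 149 CPM in the heart. Dusp5, which acts on nuclear ERK, was at 44.6, 52.7 and 142 CPM in the spleen, 31.1, 24 and 109.9 CPM in the MLN and 67, 396 and 164 CPM in the heart, and was highest in heart 2. Dusp4 was at 30.7, 17.8 and 71 CPM in the spleen, above all MLN libraries (6.83, 9.91 and 10.8 CPM, edgeR adjusted p = 0.839), and ran from 4.11 to 75.1 CPM in the heart. Dusp2 was between 9.19 and 57.1 CPM and the ERK phosphatase Dusp6 between 1.14 and 14.3 CPM over the 9 libraries.

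The ZFP36 proteins bind AU-rich messenger RNAs, many of them of cytokines, and speed their decay, and the BTG proteins slow the cell cycle and recruit the deadenylase. Zfp36 was at 60.8, 147 and 228 CPM in the spleen, 42.1, 35.2 and 72.1 CPM in the MLN and 46.1, 263 and 96.3 CPM in the heart, with spleen 3 and heart 2 highest. Zfp36l1 ranged from 20.1 to 141 CPM and Zfp36l2 from 18.5 to 81.8 CPM, each with overlap between all organs. Zfp36l1 shares 1672 exon bases with the opposite-strand gene Gm26669, which had at most 3.69 CPM. Btg2, a target of p53, was at 149, 130.1 and 83.5 CPM in heart 1, 2 and 3 and at 30.6, 46.2 and 42 CPM in the MLN, without overlap (log2 1.61, SE 0.45, edgeR adjusted p = 0.119), and at 38.5, 62 and 102 CPM in the spleen. Btg1, abundant in resting lymphocytes, overlapped between organs, at 170.3 ± 48.8, 211 ± 10.7 and 192 ± 82.3 CPM in the spleen, the MLN and the heart (SD, n = 3).

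Of the stress genes, Gadd45b, which activates p38 and JNK signalling in T cells, was at 87.2, 119 and 62.5 CPM in heart 1, 2 and 3, 40.6, 58.3 and 50.8 CPM in the spleen and 61.1, 37.4 and 32.8 CPM in the MLN. Heart 3 lay just above MLN 1, and the log2 change against the MLN was 1.03 (SE 0.41, edgeR adjusted p = 0.268). Ppp1r15a, also called Gadd34, which restarts protein synthesis after stress, was at 40, 50 and 120 CPM in the spleen, 35.9, 36.2 and 41.8 CPM in the MLN and 44.7, 135 and 26.1 CPM in the heart. Its highest libraries were heart 2 and spleen 3, and heart 3 was the lowest of all 9.

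Together the 35 genes took 0.127%, 0.187% and 0.629% of all counts in spleen 1, 2 and 3, 0.114%, 0.126% and 0.18% in MLN 1, 2 and 3, and 0.228%, 0.73% and 0.274% in heart 1, 2 and 3. Spleen 3 was thus above heart 1 and heart 3. Heart 1 and 3 owed much of their share to Atf3, which with Maff took 0.0985% and 0.087% of counts, whereas the JUN family took 0.00488% and 0.00713% there and 0.108% in heart 2. The FOS family took 0.0303%, 0.0824% and 0.0205% of counts in heart 1, 2 and 3 and 0.00516%, 0.0106% and 0.0689% in spleen 1, 2 and 3.

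**Figure D4:**
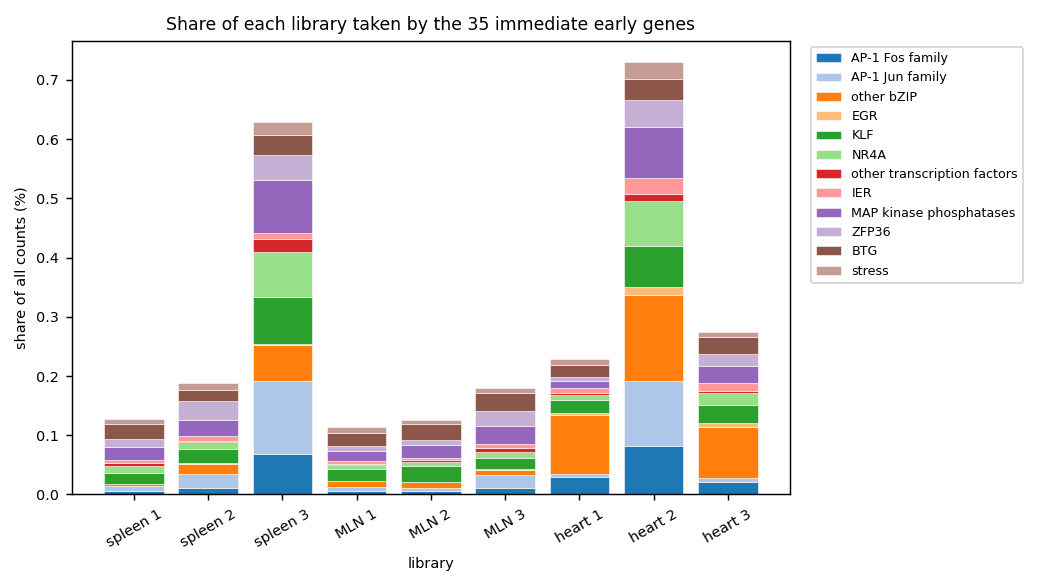
Share of all counts (%) that the 35 genes took in each library, stacked by role. Spleen 3 (0.629%) and heart 2 (0.73%) stand above the other 7 libraries, and the orange block of Atf3 and Maff is large in all 3 heart libraries.

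Heart 2 was the highest heart library for 27 of 35 genes, where it was so for 38% of all genes tested, and spleen 3 was the highest spleen library for 28 of 35 (39.2% of all genes). Both held for 21 of 35 (22.9% of all genes). Over all genes tested, the deviations of spleen 3 and heart 2 from their organ means correlated at 0.239, the highest value between organs. These libraries thus also deviated together outside the 35 genes. MLN 3 was highest in the MLN for 19 of 35 (35.7% of all genes). The ratio of heart 2 to the mean of heart 1 and 3 had a median of 2.00 over the 35 genes and 0.885 over all genes, and that of spleen 3 to the mean of spleen 1 and 2 had a median of 2.41 and 0.935. The ratios were highest in heart 2 for Junb (15.4), Jund (11.9), Nr4a1 (7.9) and Dusp4 (7.89). In spleen 3 they were highest for Csrnp1 (14.9), Jun (9.88), Ier3 (9.83) and Jund (8.87). Among the 10 genes above all lymphoid libraries in the heart, the heart 2 ratio ran from 0.838 for Fosl1 to 3.86 for Egr2, with 1.11 for Atf3 and 1.49 for Ier3.

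**Figure D5:**
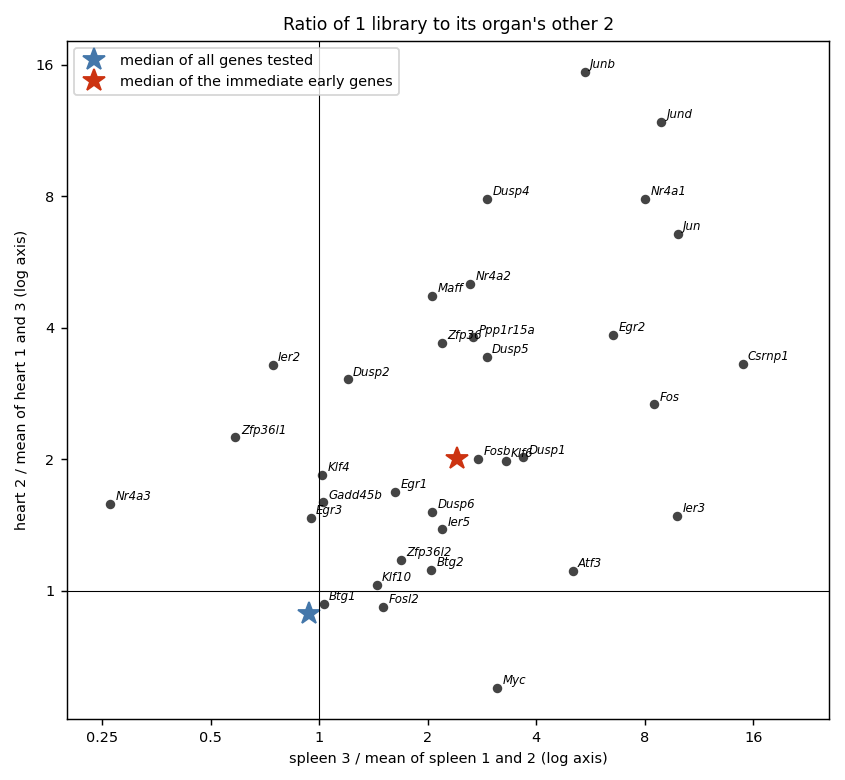
Ratio of spleen 3 to the mean of spleen 1 and 2 (x) and of heart 2 to the mean of heart 1 and 3 (y), on log axes, for 34 of the genes; Fosl1 is left out because spleen 1 and 2 had no count of it. Most genes lie above 1 on both axes, Junb, Jund, Nr4a1 and Jun farthest, and Nr4a3 is at 0.264 on the x axis.

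Without those libraries, Junb, Ier2, Dusp4 and Myc lay lower in heart 1 and 3 than in spleen 1 and 2. Junb then had a log2 change of -1.47 against the spleen (edgeR adjusted p = 0.259), where it was -0.25 with all libraries. Fos lay higher in heart 1 and 3 than in spleen 1 and 2 (log2 1.90, edgeR adjusted p = 0.199), and Csrnp1 did too (log2 2.12, edgeR adjusted p = 0.259). Of the genes above all lymphoid libraries, Atf3 had a log2 change of 3.62 against the spleen in this fit, 3.67 without spleen 3 alone and 2.44 with all libraries, and Nr4a3 had 1.43 in this fit and 2.08 with all libraries. Of 35 genes, 16 lay lower and 1 higher in MLN 1 and 2 than in spleen 1 and 2 (15.2% and 18.8% of all genes), among them Junb, Egr1, Nr4a1, Nr4a3 and Zfp36.

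Divided by the length of the merged exons, the levels put the genes in order. Atf3 led the heart at 569 ± 70.1 CPM per kb (SD, n = 3), ahead of Fos at 147 ± 95.2, Junb at 131 ± 188, Dusp5 at 84.5 ± 68.3, Ier3 at 83.8 ± 20.3 and Klf6 at 82.5 ± 36.8 CPM per kb. Only the step from Atf3 to Fos was larger than these spreads. In the spleen Junb (156 ± 163), Atf3 (105 ± 111) and Fos (88.7 ± 110 CPM per kb) led with overlapping spreads. In the MLN Klf6 (44.5 ± 12.6), Atf3 (42 ± 7.75), Btg1 (39.9 ± 2.02) and Junb (38.3 ± 30.4 CPM per kb) led, also within their spreads. Ier3 was in place 5 of 35 in the heart, 18 in the MLN and 27 in the spleen, and Myc was in place 30, 17 and 16.

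Genes upstream and beside this response were read from lists by name. Over all genes, an unadjusted p below 0.05 was reached by 9.01% higher and 4.62% lower against the spleen and by 10.3% and 5.23% against the MLN, with medians of 0.02 and 0.12. Of 25 MAP kinase and SRF pathway genes, 0 passed the edgeR test in any of the 3 comparisons, 4 were higher in the heart at an unadjusted p below 0.05 against the spleen and 4 against the MLN, and the median log2 change was 0.36 and 1.00. Of 19 CREB, NFAT and MEF2 genes 0 passed, with medians of -0.29 and 0.15, and at an unadjusted p below 0.05 each comparison had 2 higher and 1 lower in the heart. Of 14 other partners and competitors at AP-1 sites 0 passed, with medians of 0.48 and 2.04, and at an unadjusted p below 0.05, 2 were higher and 1 lower against the spleen and 4 higher and 1 lower against the MLN. In this list 10 of 14 changes were above 0 against the spleen and 12 of 14 against the MLN (50.9% and 53.5% of all genes). Bach2, a repressor of AP-1 sites that keeps Tregs in a resting state, went the other way. It was at 1.91 ± 0.409 CPM against 19.3 ± 13 CPM in the heart and the spleen (edgeR adjusted p = 0.216). Bach1 was at 57.4 ± 29.8 CPM against 8.51 ± 4.997 CPM (edgeR adjusted p = 0.144). Nfe2l2 was at 68.4 ± 34.4 CPM against 9.44 ± 1.46 CPM (edgeR adjusted p = 0.0651). Of 38 further early genes 0 passed, with medians of 0.93 and 1.49. At an unadjusted p below 0.05, 7 of these were higher and 4 lower in the heart against the spleen, and 14 were higher and 3 lower against the MLN. Nfkbiz, an NF-kB regulator, was at 194 ± 66.4 CPM against 39.2 ± 25.9 CPM in the heart and the spleen (edgeR adjusted p = 0.11). Cd69, an early activation marker that also keeps T cells in tissues, was at 141 ± 24.8 CPM against 301 ± 83.2 CPM (edgeR adjusted p = 0.286).

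Many cell types use these genes, so marker lists of other cells are given beside them. Over all genes, edgeR called 0.614% higher and 0.175% lower in the heart against the spleen, and 1.1% and 0.283% against the MLN. Macrophage and monocyte markers took 1.1% to 1.75% of counts in the heart, 0.217% to 0.496% in the spleen and 0.0792% to 0.135% in the MLN, and 3 of 18 rose in the heart against the spleen and 10 of 18 against the MLN by edgeR. Fibroblast markers took 1.78%, 0.459% and 0.486% in heart 1, 2 and 3 and at most 0.00372% elsewhere, and 6 of 14 tested rose in each comparison. Endothelial markers took 0.673%, 0.221% and 0.191% in heart 1, 2 and 3 and 0.014% to 0.0432% elsewhere, with 0 of 13 tested called against the spleen and 3 against the MLN. Neutrophil markers took 0.0606%, 0.0823% and 0.326% in the heart and at most 0.00499% elsewhere, with 0 of 10 tested called against the spleen and 1 against the MLN. Mast cell markers took 0.621%, 0.598% and 0.00412% in the heart and at most 0.00593% elsewhere, with 0 of 8 tested called against the spleen and 1 against the MLN. In heart 3, Cpa3, Mcpt4, Tpsb2, Fcer1a and Ms4a2 had no count, while Hdc was at 37 CPM, Cma1 at 8.47 CPM and Kit at 4.17 CPM. Cardiomyocyte markers took 0.0158% to 0.0434% in the heart and at most 0.00545% elsewhere, with 3 of 10 tested called in each comparison. The summed share of dendritic cell markers overlapped, at 0.35% to 1.06% in the heart and 0.335% to 1.59% elsewhere, with 0 of 12 called. Of these 12, without overlap the heart had 3 higher and 1 lower against the spleen (12.4% and 6.9% of all genes). Against the MLN, 5 were higher and 1 lower (14.9% and 11.2% of all genes). The median log2 changes were 1.5 and 1.88.

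B cell markers took 0.00986% to 0.0245% in the heart and 0.0962% to 0.584% elsewhere, with 3 of 12 lower in each comparison and Blk at no count in the heart. Treg identity genes took 0.132%, 0.217% and 0.116% in heart 1, 2 and 3, 0.349% to 0.565% in the spleen and 0.377% to 0.515% in the MLN, with 1 of 14 lower against the spleen and 2 against the MLN. General T cell genes, among them those of the receptor and coreceptor, took 0.284% to 0.54% in the heart and 0.73% to 0.984% elsewhere, with 0 of 14 called. Their median log2 changes were -1.02 against the spleen and -0.79 against the MLN, and 0 and 3 of 14 changes were above 0 (50.9% and 53.5% of all genes). At an unadjusted p below 0.05 by edgeR, 5 were lower in each comparison (4.62% and 5.23% of all genes). Without overlap, 3 and 6 were lower (6.9% and 11.2% of all genes). The part of any of these cell types in the levels of the 35 genes was not tested.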

How the data were processed

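RNA was sequenced from Tregs of 3 organs with 3 libraries each, made with a SMARTer low-input kit per the labels' protocols, which amplifies cDNA by PCR. The authors deposited raw read counts per gene, not normalized. Per the submitters' processing notes, the authors used CASAVA 1.8.2, HISAT2 and HTSeq 0.6.0 with build mm10. The strand option, aligner version and annotation release: not given in the sources used here. All 9 columns were used.

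The test was edgeR 4.0.16 under R 4.3.3 (minimum count 10, minimum total 15, TMM scaling, 1 quasi-likelihood fit of all libraries by organ, 6 residual degrees of freedom, two-sided, Benjamini-Hochberg over 16609 genes, threshold 0.05). CPM divides counts by scaled totals. Alternatives used DESeq2 1.42.0, limma 3.58.1 (voom), other scaling, other filters, a replicate block, 2 organs alone, and libraries left out. The median biological coefficient of variation was 102%. All pairs of libraries of the same organ differed by more than sampling noise. A count of 0 allows up to 3 counts, which covers counting error only, because PCR copies are not independent molecules. The pipeline was tested on simulated data. Coordinates and exon lengths came from GENCODE vM21, in which 49326 of 49510 gene identifiers were found, on GRCm38, the assembly that mm10 names. Promoters came from RefSeq. Symbols not in the table were matched by RefSeq synonyms.

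The genes and lists were chosen with earlier results of these data known. All 35 genes are named. Fold changes with SE are given where a gene passed an adjusted p of 0.05, or where libraries did not overlap and the unadjusted p was below 0.05. The genes named from other lists, and those named for 1 library, were picked after their values were seen.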

Additional observations from a re-analysis of the deposited data

How the results depend on the processing

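Each of the 19 gene changes given with an SE kept its direction in all 18 alternatives. They were picked for libraries that do not overlap, so leaving libraries out could hardly reverse them. The other settings reuse the same counts, so the kept direction adds no support. Calls moved more. In the heart against the spleen, DESeq2 called 1883 genes and 5 of the 35, limma-voom 1141 and 6, a stricter filter 223 genes and the 2 organs fitted alone 292. Against the MLN, DESeq2 called 2211 genes and 11 of the 35, limma-voom 1332 and 7, the stricter filter 369 and 3, the 2 organs alone 548 and 3, RLE size factors 272 and 3, no filter 171 and 0, and unscaled library totals, chosen after seeing the data, 203 and 0. The other filters and the fits of 2 organs alone each tested their own number of genes. Their counts of the 35 are therefore not set against a share of all genes. RLE size factors and unscaled totals kept the main filter, so their 272 and 203 genes called against the MLN are out of 16609. In the MLN against the spleen DESeq2 called 779 genes and limma-voom 3. Unscaled totals put the median of all genes at -0.24 (heart against spleen) and -0.10 (heart against MLN).

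With 1 library left out, genes called ran from 0 to 122 (heart against spleen) and from 0 to 249 (heart against MLN), and 0 to 1 of the 35 were called in the latter. The median log2 change of the 35 ran from 0.20 (without heart 2) to 1.41 (without spleen 3), from 1.01 (without heart 2) to 2.29 (without heart 1), and from -1.05 to -0.090 (without spleen 3) in heart against spleen, heart against MLN and MLN against spleen. Without spleen 3, MLN 3 and heart 2 together, 3 and 4 genes were called in the heart comparisons, with 0 of the 35 and a median of 1.07 against the MLN. With the replicate block 0 genes were called in the heart against the spleen and 0 against the MLN, 0 of the 35 among them. The labels give no shared source for a number, 1 of 9 same-number pairs had a correlation of deviations over 0.1, and 1 library correlated best with its own number. The highest correlation between organs was that of spleen 3 and heart 2, at 0.239. The causes of these changes were not tested. 2 or 3 libraries per organ with a coefficient of variation of 102% limit what could be called.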

Other observations

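Heat shock genes, which are often induced together with immediate early genes when tissue is taken apart, were read from a list of 12. By edgeR 1 of 12 rose in the heart against the spleen, Hspa1b (0.614% of all genes did), and 0 of 12 passed against the MLN (1.38% of all genes did). The median log2 changes were 0.51 and 0.57. At an unadjusted p below 0.05, 4 and 3 were higher in the heart (9.01% and 10.3% of all genes). The change was above 0 for 10 and 9 of the 12 (50.9% and 53.5% of all genes). Hspa1b stood at 5.83 ± 3.44 CPM in the heart (SD, n = 3), whereas all spleen libraries were at 0 (edgeR adjusted p = 0.0475). Hspa1a was at 17 ± 13.3 CPM against 0.524 ± 0.444 CPM in the heart and the MLN (edgeR adjusted p = 0.239), and the small heat shock gene Hspb1 was at 156 ± 186 CPM against 0.364 ± 0.324 CPM (edgeR adjusted p = 0.177). The list took 0.285%, 0.257% and 0.165% of counts in heart 1, 2 and 3, 0.187%, 0.145% and 0.335% in spleen 1, 2 and 3, and 0.218% to 0.236% in the MLN. Its share was thus highest in spleen 3, and heart 2 was below heart 1. Such a sum weighs the most abundant genes of the list most, so it need not follow the genes named here. The part of tissue handling in these levels was not tested.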
